A study of Homo sapiens with 6 samples.

Results

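The comparison set derivatives of a human glioma line that had been passaged through the brain against the parental line they came from. All 6 arrays of the series entered it: 4 derivative arrays, U87MGL2, U87MGL3, U87MGR2 and U87MGR3, against 2 arrays of U87MG. Each gene was represented by its brightest probe set, and 14513 genes bright enough to be tested were compared. Of these, 757 were called, and in each of the 757 all 4 derivative arrays lay on the same side of both U87MG arrays. The derivatives thus form one arm of 4 arrays here, and the difference between them stays in the error of each estimate.

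U87MG is an established glioblastoma line bought from a cell bank and grown in medium with 10% fetal bovine serum. U87MGL, described as non-invasive, and U87MGR, described as highly invasive, were raised from U87MG. Cells were injected into the striatum of 6-week-old immune-deficient nude mice (BALB/c nu/nu), tumours were dissociated, and the tumour cells were returned to the same culture medium. This cycle was run 4 times. The labels give no genetic change and no drug in any group. They do not say whether the numbers 2 and 3 mark sublines, clones or cultures, nor that U87MG was carried in culture for the same time. Nude mice lack T cells and keep other host cells, and no step that removes mouse cells other than red cells is described.

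Glioblastoma spreads by migration of single cells through brain tissue, and outgrowth in the brain also requires division there. Genes of mitosis are transcribed late in the cell cycle. Their promoters often carry a CHR element, the letters TTTGAA or TTCGAA, and CCAAT boxes bound by the factor NF-Y. Major histocompatibility complex (MHC) class II proteins present peptides to helper T cells and can be made by glioma cells. Urokinase, encoded by PLAU, starts plasmin formation at its receptor PLAUR, and plasmin degrades extracellular matrix.

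The values were log2 signals already on a common scale, with array medians of 5.29 to 5.35. The standard deviation (SD) between replicates over all genes tested was 0.20 in U87MGL, 0.24 in U87MGR and 0.32 in U87MG. Spike-in controls, both bacterial cDNA controls and hybridisation controls, parted the arrays into 3 sets, called batches here. The labels name no batch, and the step at which the arrays parted was not tested. U87MGL2, U87MGL3 and U87MGR2 formed one batch, U87MGR3 and U87MG replicate 1 another, and U87MG replicate 2 stood alone. Distances in these controls were 0.591 to 1.25 within batches and 5.06 to 6.46 between them. A within-batch comparison with U87MG could therefore be made only as U87MGR3 minus U87MG replicate 1, and it is given below as the within-batch difference. The actin control, probed at both ends of its transcript as a check of RNA quality, was brighter at the 3′ end by 0.25 to 0.39 in the derivative arrays, against -0.01 and 0.22 in U87MG. Its part in the results was not tested.

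More genes were higher than lower in the derivatives. With limma and an adjusted p under 0.05, 469 of 14513 genes (3.23%) were higher in the derivatives and 288 (1.98%) were lower, 5.22% in all. Before adjustment, 1898 and 1527 genes had a p under 0.05. The median log2 difference was 0.99 among the higher genes and -1.0 among the lower ones, against -0.01 over all genes tested. A change of at least 2-fold was seen in 225 higher and 144 lower genes, and of at least 4-fold in 18 and 30. Arrays that did not overlap between derivatives and U87MG were common also without a call, since 17.1% of all genes had all 4 derivative arrays above both U87MG arrays and 16.2% had them below. Among called genes the gap between the nearest derivative array and the nearest U87MG array was 0.33 to 2.70 for higher genes and 0.34 to 4.30 for lower genes, on the log2 scale.

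The number of calls rested on single arrays. Without U87MG replicate 2 the counts were 66 higher (0.455%) and 50 lower (0.345%). Without U87MGR2 they were 65 (0.448%) and 64 (0.441%), and without U87MGL3 92 (0.634%) and 69 (0.475%). Without U87MGL2 they were 296 (2.04%) and 202 (1.39%). Without U87MGR3 they were 497 (3.42%) and 293 (2.02%), and without U87MG replicate 1 479 (3.3%) and 397 (2.74%). Called in every one of the 6 fits that left out 1 array were 29 higher and 27 lower genes. The within-batch difference had medians of 0.88 for higher and -1.07 for lower genes. Its sign was fixed in all 757, since every derivative array already lay on one side of both U87MG arrays, so it is no further check of direction. With 2 spike-in batches as a block, U87MG replicate 2 being placed with the other U87MG array, 16 genes (0.11%) were higher and 31 (0.214%) lower. Of the 757 genes, 10 and 24 were among these. This estimate is U87MGR3 minus the mean of the U87MG arrays, so its sign was fixed in the 757 genes as well.

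**Figure D1:**
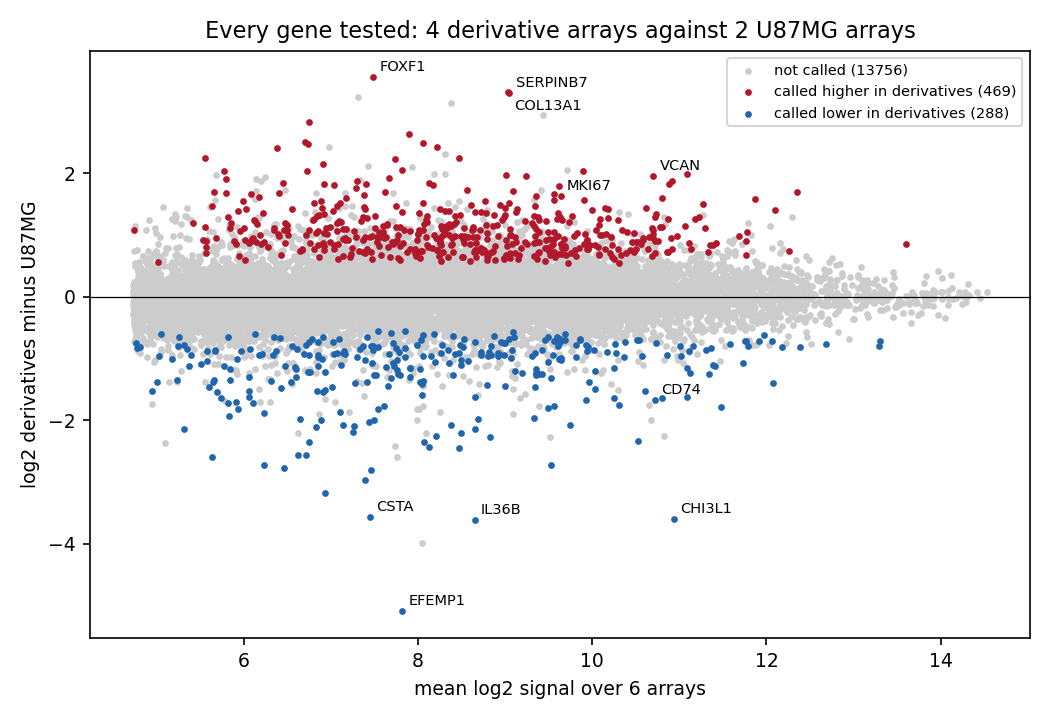
Each point is 1 of the 14513 genes tested, with its mean log2 signal over the 6 arrays on the horizontal axis and the log2 difference, derivatives minus U87MG, on the vertical axis. Red points are the 469 genes called higher, blue points the 288 called lower and grey points the rest; EFEMP1 lies lowest among the called genes at -5.09 and FOXF1 highest at 3.55.

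The largest fall was that of EFEMP1, which encodes fibulin-3, a secreted glycoprotein of the extracellular matrix. Signals are given from here on in the order U87MGL2, U87MGL3, U87MGR2 and U87MGR3 for the derivatives and replicate 1, replicate 2 for U87MG. EFEMP1 had log2 signals of 6.89, 5.46, 6.53 and 5.61 in the derivatives, against 11.19 and 11.22 in U87MG. The highest derivative array was thus 4.30 log2 units below the lower U87MG array. The difference was -5.09 (standard error, SE, 0.40, limma adjusted p = 0.00658), or 34.0-fold lower in the derivatives. A second probe set of EFEMP1 above the brightness limit differed by -4.60.

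IL36B, an inflammatory cytokine of the interleukin-1 family, had 6.97, 8.37, 7.77 and 6.69 in the derivatives, against 10.94 and 11.19 in U87MG (log2 difference -3.62, SE 0.44, adjusted p = 0.0106). CHI3L1 encodes a secreted chitinase-like glycoprotein used as a marker of the mesenchymal type of glioblastoma. It had 9.83, 8.58, 10.46 and 10.10 in the derivatives, against 13.35 and 13.32 in U87MG (-3.59, SE 0.46, adjusted p = 0.012). All 4 derivative arrays were at least 2.86 below U87MG in CHI3L1. CSTA, the cysteine protease inhibitor cystatin A, had 6.91, 6.95, 6.21 and 4.97 in the derivatives, against 10.15 and 9.50 in U87MG (-3.57, SE 0.54, adjusted p = 0.0174). Within the derivatives CSTA was lowest in U87MGR3 and alike in both U87MGL arrays.

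CH25H, which makes 25-hydroxycholesterol, had 6.70, 6.10, 6.32 and 6.50 in the derivatives, against 9.41 and 9.31 in U87MG (-2.96, SE 0.18, adjusted p = 0.00356). Its arrays were close together on both sides. HSD11B1, the enzyme that regenerates cortisol from cortisone, had 4.98, 5.68, 5.55 and 5.94 in the derivatives, against 8.74 and 7.88 in U87MG (-2.77, SE 0.32). DAPL1, a relative of death-associated protein, had 5.43, 5.70, 5.29 and 4.89 in the derivatives, against 7.88 and 8.22 in U87MG (-2.72, SE 0.23). The other falls among the 12 largest were IL1RN (-3.17), OLFML3 (-2.81), a secreted olfactomedin-domain protein, NMB (-2.72), the neuropeptide neuromedin B, DMKN (-2.59), a secreted epithelial protein, and HLA-DQA1 (-2.56). DMKN fell by 1.64 without U87MG replicate 2, the array in which it was highest. Of these 12 falls, EFEMP1, IL1RN, CH25H, HSD11B1, DAPL1 and NMB were called in every fit that left out 1 array, and 7 of the 12 were called without U87MG replicate 2.

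FOXF1, a forkhead transcription factor of mesenchyme, rose the most. It had 8.0, 9.18, 8.12 and 9.37 in the derivatives, against 5.3 and 4.93 in U87MG (log2 difference 3.55, SE 0.41, limma adjusted p = 0.0103), or 11.7-fold higher in the derivatives. The within-batch difference was 4.07. COL13A1, a transmembrane collagen, had 10.94, 11.06, 8.82 and 9.75 in the derivatives, against 7.53 and 6.11 in U87MG (3.32, SE 0.67, adjusted p = 0.0364). Both U87MGL arrays were above both U87MGR arrays in COL13A1, and 2 dimmer probe sets of the gene differed by 1.08 and 1.12. SERPINB7, an intracellular serine protease inhibitor, had 9.25, 10.37, 10.45 and 10.51 in the derivatives, against 7.16 and 6.54 in U87MG (3.29, SE 0.37, adjusted p = 0.0101).

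RBMS3, an RNA-binding protein, had 7.59, 7.60, 7.28 and 7.79 in the derivatives, against 5.15 and 5.04 in U87MG (2.47, SE 0.17, adjusted p = 0.00356). Its difference was as narrow in spread as that of CH25H. C18orf54 had 8.71, 8.89, 8.66 and 8.81 in the derivatives, against 6.66 and 5.62 in U87MG (2.63, SE 0.26, adjusted p = 0.00922). The derivative arrays of C18orf54 spanned 0.23, less than the U87MG arrays did. Dimmer probe sets of C18orf54 above the brightness limit differed by 1.17 and 1.00. EPHA2, an ephrin receptor kinase, had 8.65, 9.31, 8.66 and 8.95 in the derivatives, against 7.07 and 5.72 in U87MG (2.49, SE 0.36, adjusted p = 0.016).

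The remaining rises among the 12 largest were SERPIND1 (2.83), the thrombin inhibitor heparin cofactor II, and ADAMTS6 (2.51), a secreted metalloprotease. SLC4A4 (2.43) is a sodium bicarbonate cotransporter, CTHRC1 (2.41) a secreted protein with a collagen-like repeat, SLC26A4 (2.24) an anion exchanger and GINS4 (2.24) a subunit of the replicative helicase complex. SLC26A4 passed the brightness limit only through its derivative arrays, being below it in U87MG. GINS4 was 9.44, 9.80, 9.73 and 7.90 in the derivatives, against 6.94 and 7.01 in U87MG, so that U87MGR3 stood apart from the other derivative arrays. The within-batch difference, which uses U87MGR3, was 0.96 for GINS4 and 1.87 for SERPIND1. C18orf54, RBMS3 and SLC4A4 were called in every fit that left out 1 array. Without U87MG replicate 2, 3 of the 12 rises were called.

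**Figure D2:**
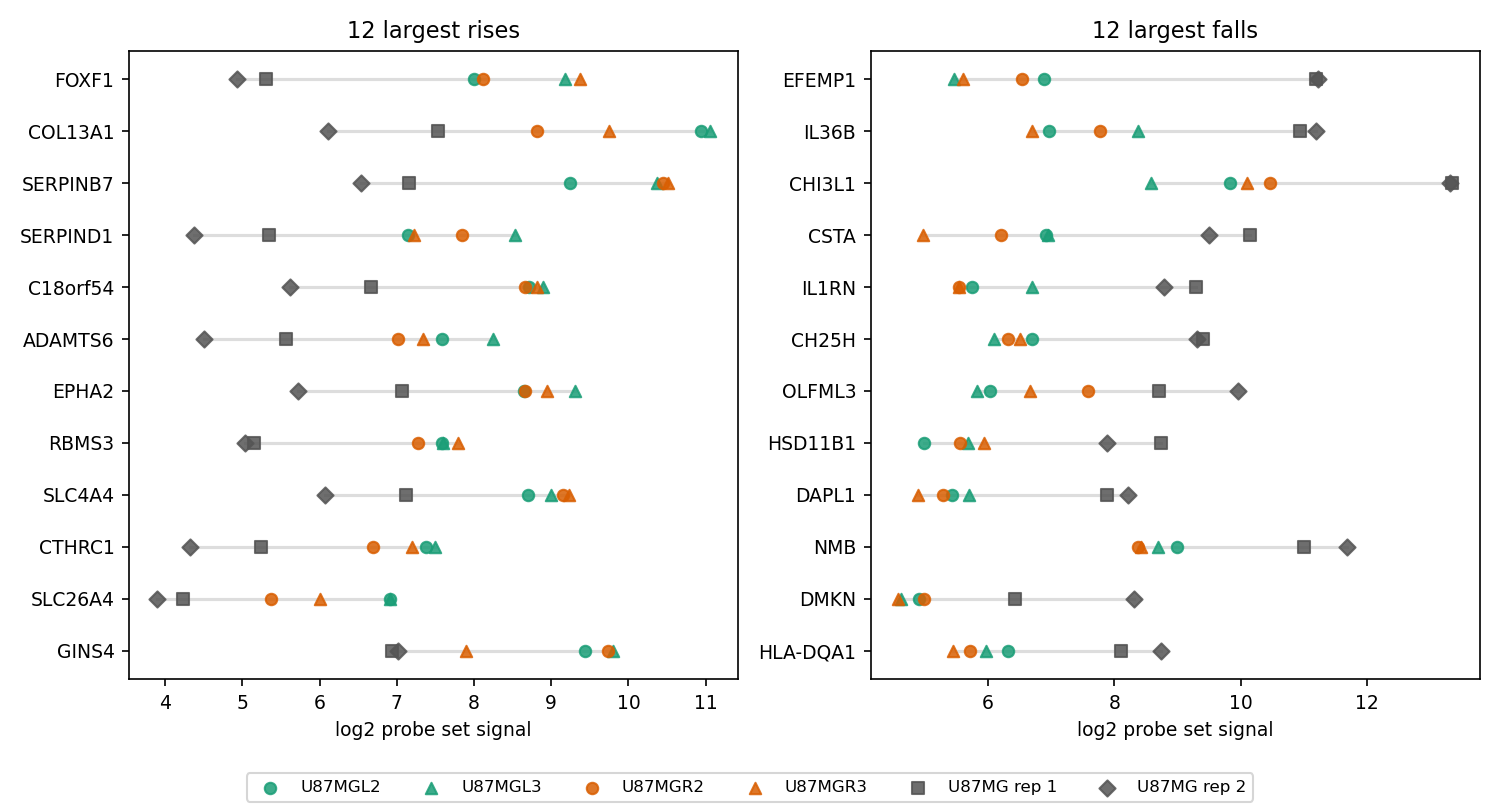
Log2 probe set signal on the horizontal axis for the 12 called genes with the largest rise and the 12 with the largest fall, 1 gene per row. Green points are U87MGL2 and U87MGL3, orange points U87MGR2 and U87MGR3, and grey points the 2 U87MG arrays; in each row the derivative points do not cross the U87MG points, and the EFEMP1 row has the widest gap at 4.30.

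Genes of mitosis and cytokinesis were higher in the derivatives as a group. Of 52 genes on the list, all of which were tested, 40 rose and none fell, against 3.23% of all genes called higher, and the other 12 genes also had a difference above 0. The list median was 1.05, against -0.01 over all genes tested, and the members ranged between 0.44 and 1.83. As medians relative to the U87MG mean the list stood at 0.99 in U87MGL2, 1.04 in U87MGL3, 1.14 in U87MGR2 and 1.04 in U87MGR3, against 0.19 and -0.19 in U87MG. The 4 derivative arrays were thus within 0.15 of each other on this measure.

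ANLN, the actin-binding protein anillin of the cleavage furrow, rose the most on the list, with 11.25, 11.35, 11.83 and 11.51 in the derivatives, against 9.96 and 9.35 in U87MG (log2 difference 1.83, SE 0.23, limma adjusted p = 0.0108). KIF23, a kinesin of the central spindle, had 9.77, 9.78, 9.87 and 9.24 in the derivatives, against 8.30 and 7.61 in U87MG (1.71, SE 0.25, adjusted p = 0.016). Its within-batch difference was 0.93. SGO1, which protects the cohesion of centromeres, had 6.33, 6.25, 6.04 and 6.27 in the derivatives, against 4.61 and 4.44 in U87MG (1.70, SE 0.14, adjusted p = 0.00658). Both U87MG arrays of SGO1 were below the brightness limit of 4.73, which the gene passed through its derivative arrays. KIF4A, a chromosome-bound kinesin, had 9.96, 9.92, 10.02 and 9.67 in the derivatives, against 8.45 and 8.07 in U87MG (1.63, SE 0.17, adjusted p = 0.00922).

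MKI67, which encodes the proliferation marker Ki-67, had 10.07, 10.30, 10.20 and 10.18 in the derivatives, against 8.46 and 8.65 in U87MG (1.63, SE 0.13, adjusted p = 0.00658). Its U87MGL and U87MGR means differed by 0.01, the most even of all called genes with a change of at least 1.5. TOP2A, the topoisomerase that untangles replicated chromosomes, rose by 1.5, CENPE by 1.48, HMMR by 1.43, AURKA by 1.15, CDK1 by 0.91 and CCNB1 by 0.87. The called members rose by 0.70 to 1.83, and FOXM1, a transcription factor of mitotic genes, rose by 1.05. Differences below the threshold included CENPF (1.01, adjusted p = 0.07) and BIRC5 (0.83, adjusted p = 0.06).

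The count of called mitotic genes depended on the arrays, and the level of the list did so less. It was 31 without U87MGL2, 12 without U87MGL3, 6 without U87MGR2, 40 without U87MGR3, 39 without U87MG replicate 1 and 4 without U87MG replicate 2. The list median lay between 0.842 and 1.27 in these fits, and 48 or more of the 52 genes had an unadjusted p under 0.05 and a higher level in the derivatives in each. The within-batch median was 0.78, with 51 of 52 genes above 0. That sign was fixed in 50 of the 52, in which all derivative arrays lay above both U87MG arrays. With 2 spike-in batches as a block the count was 2, MKI67 and SGO1, and 44 at an unadjusted p under 0.05. SGO1 was below the brightness limit in both U87MG arrays.

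The promoters of these genes are shown because the members moved together. The windows run from 250 bases before to 50 bases after the annotated start, read 5′ to 3′ on the gene's strand, and come from RefSeq on GRCh38.p14. Capitals mark a CHR element (TTTGAA or TTCGAA) or a CCAAT box, on either strand, so that TTCAAA and ATTGG are the same letters read from the other strand. The 4 genes of the list with the largest rise and MKI67 are printed. MKI67 lies at chr10:128126374-128126673 (minus strand), ANLN at chr7:36389612-36389911 (plus), KIF23 at chr15:69414099-69414398 (plus), SGO1 at chr3:20186157-20186456 (minus) and KIF4A at chrX:70289854-70290153 (plus).
MKI67: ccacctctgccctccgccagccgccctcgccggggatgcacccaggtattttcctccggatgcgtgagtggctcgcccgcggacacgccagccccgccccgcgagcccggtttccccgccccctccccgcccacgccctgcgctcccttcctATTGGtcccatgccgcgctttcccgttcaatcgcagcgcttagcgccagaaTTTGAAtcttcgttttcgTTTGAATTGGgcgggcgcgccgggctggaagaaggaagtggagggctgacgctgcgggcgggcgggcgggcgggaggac
ANLN: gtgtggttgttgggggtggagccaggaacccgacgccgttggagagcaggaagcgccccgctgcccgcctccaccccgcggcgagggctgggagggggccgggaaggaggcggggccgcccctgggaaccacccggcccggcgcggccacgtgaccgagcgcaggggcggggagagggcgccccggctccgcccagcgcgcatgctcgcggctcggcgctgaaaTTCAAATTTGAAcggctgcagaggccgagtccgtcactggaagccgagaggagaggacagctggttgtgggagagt
KIF23: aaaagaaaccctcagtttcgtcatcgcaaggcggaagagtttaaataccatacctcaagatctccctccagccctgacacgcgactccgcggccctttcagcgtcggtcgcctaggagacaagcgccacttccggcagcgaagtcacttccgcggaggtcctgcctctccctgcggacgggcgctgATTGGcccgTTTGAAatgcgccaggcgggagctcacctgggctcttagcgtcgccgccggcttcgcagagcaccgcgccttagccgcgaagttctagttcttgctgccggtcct
SGO1: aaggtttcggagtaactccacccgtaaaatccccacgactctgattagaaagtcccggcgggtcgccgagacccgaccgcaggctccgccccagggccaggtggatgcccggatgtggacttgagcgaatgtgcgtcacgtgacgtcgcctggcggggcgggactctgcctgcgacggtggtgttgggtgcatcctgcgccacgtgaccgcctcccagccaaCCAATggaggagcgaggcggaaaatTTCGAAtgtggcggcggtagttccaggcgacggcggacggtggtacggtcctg
KIF4A: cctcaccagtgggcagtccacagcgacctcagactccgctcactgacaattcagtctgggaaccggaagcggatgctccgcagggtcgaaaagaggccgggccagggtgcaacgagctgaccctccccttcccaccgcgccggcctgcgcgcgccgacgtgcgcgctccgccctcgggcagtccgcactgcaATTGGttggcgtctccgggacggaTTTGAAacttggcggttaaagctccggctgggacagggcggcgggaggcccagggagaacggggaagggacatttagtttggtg

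In MKI67 a CHR match began 47 bases and another 29 bases before the start, and a CCAAT box overlapped the second by 1 base. In ANLN a pair of matches on opposite strands lay side by side 26 and 20 bases before the start, with no CCAAT letters in the window. KIF23, SGO1 and KIF4A each had 1 CHR match, 55, 3 and 34 bases before the start, with a CCAAT box upstream of it at 64, 28 and 58 bases. Among the 56 windows found for 44 of the 52 mitotic genes, 35 (62.5%) held a CHR match, 38 (67.9%) a CCAAT box and 25 (44.6%) both. Among the 16741 windows of genes tested the shares were 12.1%, 34.2% and 4.77%, and among all 35116 windows 16.4%, 34.6% and 6.38%. In windows of all genes called higher they were 24.1%, 41.7% and 13.1%, and in those of genes called lower 13.3%, 36.4% and 5.72%. The windows of called mitotic genes are also counted among those of genes called higher, so these shares are not separate. A match describes the letters of the window and says nothing of binding in these cells.

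**Figure D3:**
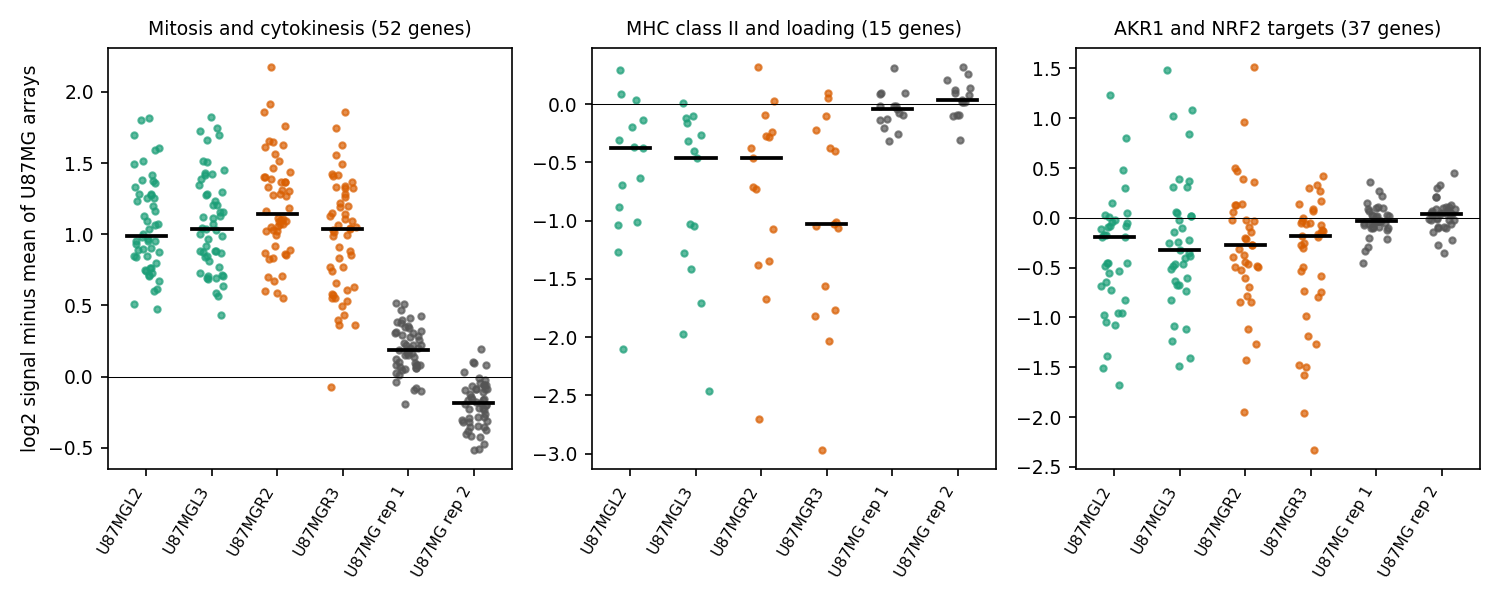
Log2 signal minus the mean of the U87MG arrays (vertical axis) for each member of 3 gene lists, in the 4 derivative arrays and then the 2 U87MG arrays; each point is 1 gene and each bar the median of the list in that array. The mitosis medians are 0.99 to 1.14 in the derivatives, against 0.19 and -0.19 in U87MG, and the MHC class II median is lowest in U87MGR3 at -1.03.

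Genes of DNA replication and of the G1/S transition were shifted the same way with fewer calls. Of 47 tested, 11 rose (23.4%, against 3.23% of all genes) and none fell, and the list median was 0.70. Medians by array were 0.61, 0.83, 0.70 and 0.70 in the derivatives, against 0.13 and -0.13 in U87MG. RRM2, the small subunit of ribonucleotide reductase, had 12.75, 12.95, 12.43 and 12.11 in the derivatives, against 11.42 and 10.90 in U87MG (log2 difference 1.40, SE 0.26, limma adjusted p = 0.0299, within-batch 0.69). ORC6, of the origin recognition complex, had 9.41, 9.83, 9.77 and 9.87 in the derivatives, against 8.63 and 8.51 in U87MG (1.15, SE 0.17, adjusted p = 0.0159). Both groups of arrays were tight in ORC6.

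MCM10, an initiation factor, rose by 1.51, and by 0.98 without U87MG replicate 2. MCM2 (0.40), MCM4 (0.34) and MCM6 (-0.00), subunits of the replicative helicase, did not pass the test. The count of 11 became 15 without U87MG replicate 1 and 0 in limma without U87MGL3, without U87MGR2 or without U87MG replicate 2, where 29, 31 and 19 genes had an unadjusted p under 0.05. With 2 spike-in batches as a block it was 0 (unadjusted 23), and the within-batch median was 0.49. Of the 55 windows of this list, 2 (3.64%) held a CHR match and 32 (58.2%) a CCAAT box. Among 22 tested CDK inhibitors and p53 targets, 2 rose (9.09%, against 3.23% of all genes) and none fell. They were TP53I3, by 0.87, and MDM2, the ubiquitin ligase that degrades p53, by 0.73. In MDM2, 4 dimmer probe sets above the brightness limit differed by -0.46, -0.01, 0.03 and 0.45.

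MHC class II genes were lower in the derivatives. Of 15 genes for class II chains, peptide loading and their regulators, 7 fell and none rose, against 1.98% of all genes called lower, and the list median was -0.57. The 7 were CD74 and 6 genes of the classical chains HLA-DP, HLA-DQ and HLA-DR, and their falls ranged between 0.86 and 2.56. CIITA (-0.06) and RFX5 (-0.03), the regulators of class II transcription, did not pass the test, nor did HLA-DMA (-0.37) and HLA-DMB (-0.57), which load peptide.

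CD74, the invariant chain that guides class II molecules, had 10.56, 9.86, 10.16 and 10.06 in the derivatives, against 11.81 and 11.85 in U87MG (log2 difference -1.67, SE 0.20, limma adjusted p = 0.0105). HLA-DRA, the DR alpha chain, had 10.59, 9.92, 10.28 and 9.59 in the derivatives, against 11.61 and 11.64 in U87MG (-1.53, SE 0.26, adjusted p = 0.0254). HLA-DQA1 had 6.32, 5.96, 5.72 and 5.45 in the derivatives, against 8.10 and 8.74 in U87MG (-2.56, SE 0.27, adjusted p = 0.00926). No derivative array of these genes overlapped U87MG, and both U87MGR arrays of HLA-DQA1 were below both U87MGL arrays. HLA-DPB1, the DP beta chain, had 9.87, 9.60, 9.50 and 9.06 in the derivatives, against 10.80 and 10.96 in U87MG (-1.37, SE 0.22, adjusted p = 0.0207).

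Class II genes are highly polymorphic and alike in sequence, so probe sets may take up signal of related genes or alleles. The list median by array was -0.38, -0.47, -0.47 and -1.03 in the derivatives, against -0.04 and 0.04 in U87MG, with U87MGR3 the lowest. The within-batch median, which uses that array, was -1.05. The count of 7 stood without U87MGL2 and without U87MGR3, was 2 without U87MGL3 or without U87MGR2 and 3 without U87MG replicate 1, and was 0 in limma without U87MG replicate 2 (unadjusted 7). With 2 spike-in batches as a block HLA-DQA1 and HLA-DPB1 were called. Windows of CD74 (chr5:150412861-150413160, minus strand) and HLA-DPB1 (chr6:33075740-33076039, plus) are printed as members that fell together, with CCAAT boxes, part of class II promoters, and CHR letters in capitals as above.
CD74: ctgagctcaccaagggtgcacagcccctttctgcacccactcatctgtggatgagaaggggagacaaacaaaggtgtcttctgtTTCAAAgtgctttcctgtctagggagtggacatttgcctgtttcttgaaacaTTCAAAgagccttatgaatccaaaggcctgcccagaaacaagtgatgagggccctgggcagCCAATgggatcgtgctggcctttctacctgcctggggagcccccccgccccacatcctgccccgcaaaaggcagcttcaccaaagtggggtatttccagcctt
HLA-DPB1: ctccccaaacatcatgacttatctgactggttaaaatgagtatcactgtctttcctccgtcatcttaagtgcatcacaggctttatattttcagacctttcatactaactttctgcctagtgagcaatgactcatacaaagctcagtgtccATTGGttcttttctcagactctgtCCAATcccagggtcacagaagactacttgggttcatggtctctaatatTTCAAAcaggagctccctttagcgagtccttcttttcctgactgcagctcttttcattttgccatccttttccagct

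The CCAAT letters began 53 bases before the start in CD74 and 99 and 75 bases before it in HLA-DPB1. CHR letters on the other strand began 166 and 114 bases before the start in CD74 and 27 bases before it in HLA-DPB1. Both printed windows thus held both kinds of letters, which is not typical of the list. HLA-DQA1, which fell most, is not printed. Among the 18 windows found for 13 of the 15 genes, 10 (55.6%) held a CCAAT box, 5 (27.8%) a CHR match and 4 (22.2%) both, against 34.2%, 12.1% and 4.77% of the windows of genes tested.

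Some MHC class I genes and peptide loading partners were also lower. Of 19 tested, 6 fell (31.6%, against 1.98% of all genes) and none rose, and the median was -0.44. The list medians by array were -0.41, -0.52, -0.47 and -0.63 in the derivatives, against 0.11 and -0.11 in U87MG. The difference between the class I and class II lists was not tested. PDIA3, a disulfide isomerase of the loading complex, had 11.46, 11.24, 11.17 and 11.61 in the derivatives, against 12.81 and 12.08 in U87MG (log2 difference -1.08, SE 0.23, limma adjusted p = 0.042), and fell by 0.71 without U87MG replicate 1. HLA-B had 13.02, 12.96, 13.16 and 12.97 in the derivatives, against 14.05 and 13.61 in U87MG (-0.80, SE 0.16, adjusted p = 0.0347). In HLA-B the derivative arrays spanned 0.20 and the U87MG arrays 0.44. HLA-F fell by 0.95, HLA-G by 0.83, HLA-C by 0.76 and PSMB8, of the immunoproteasome, by 0.65, with the same limit on probe sets of related genes. The count of 6 fell with the omission of any array, to 2 without U87MGR3, 1 without either U87MG array and 0 in limma without U87MGL2, U87MGL3 or U87MGR2 (unadjusted 10, 9 and 10).

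Interferon-stimulated genes had calls and a median of opposite sign. Of 38 tested, 3 rose (7.89%, against 3.23% of all genes) and none fell, while the median was -0.30 and 28 genes lay below 0. SAMD9, an antiviral factor, had 8.39, 8.46, 8.32 and 8.33 in the derivatives, against 7.35 and 7.24 in U87MG (log2 difference 1.08, SE 0.12, limma adjusted p = 0.0102). HERC6, a ubiquitin ligase family member, had 7.33, 7.33, 7.33 and 7.16 in the derivatives, against 6.29 and 6.26 in U87MG (1.01, SE 0.12, adjusted p = 0.0108). Both were narrow in spread. OAS3, an RNA sensor, rose by 1.04, with a within-batch difference of 0.55.

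Genes of the interleukin-1 family and inflammasome were lower where they were called. Of 19 tested, 5 fell (26.3%, against 1.98% of all genes) and none rose, with a median of -0.25. IL1RN encodes the antagonist of the interleukin-1 receptor. It had 5.75, 6.69, 5.54 and 5.54 in the derivatives, against 9.30 and 8.79 in U87MG (log2 difference -3.17, SE 0.34, limma adjusted p = 0.00943), and other probe sets above the brightness limit differed by -1.07 and -1.03. IL36RN, the antagonist of the interleukin-36 receptor, had 6.63, 7.67, 8.30 and 7.20 in the derivatives, against 9.09 and 10.31 in U87MG (-2.25, SE 0.49, adjusted p = 0.0439). The calls thus included a cytokine, IL36B, and antagonists of both receptors.

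IL1R2, a decoy receptor, fell by 0.95 near the brightness limit, which its mean passed only through the U87MG arrays. AIM2, a DNA sensor, fell by 0.86. Leaving out 1 array gave 2 to 5 lower calls on this list, with 2 without U87MGR2 or U87MG replicate 2. Among 30 chemokines, cytokines and colony factors, 1 rose (3.33%, near the 3.23% of all genes) and 1 fell (3.33%, against 1.98%). CCL2, a monocyte chemokine, had 7.61, 6.79, 5.82 and 5.86 in the derivatives, against 8.56 and 8.86 in U87MG (-2.19, SE 0.49, adjusted p = 0.0469), with U87MGR below U87MGL. IL6R, the interleukin-6 receptor, rose by 0.77.

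Urokinase and its receptor were among the rises of the matrix proteases and inhibitors. Of 39 tested, 5 rose (12.8%, against 3.23% of all genes) and 2 fell (5.13%, against 1.98%), with a median of 0.01. PLAU had 11.22, 12.38, 11.71 and 11.72 in the derivatives, against 9.82 and 9.70 in U87MG (log2 difference 2.00, SE 0.29, limma adjusted p = 0.0159). PLAUR had 11.13, 11.79, 11.38 and 11.06 in the derivatives, against 9.91 and 9.57 in U87MG (1.6, SE 0.23, adjusted p = 0.0158). Enzyme and receptor were thus 3.98-fold and 3.03-fold higher in the derivatives. PLAT, the tissue-type plasminogen activator, differed by 0.45 (adjusted p = 0.652).

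MMP1, an interstitial collagenase, had 8.37, 9.60, 7.70 and 8.36 in the derivatives, against 6.72 and 6.18 in U87MG (2.06, SE 0.47, adjusted p = 0.0496), a call at the edge of the threshold. ADAMTS1 rose by 0.93. The 2 falls were lysosomal cathepsins. CTSK had 11.08, 10.63, 10.88 and 10.93 in the derivatives, against 12.08 and 13.27 in U87MG (-1.79, SE 0.31, adjusted p = 0.0248), and CTSB fell by 0.81. The other cathepsins tested, CTSD (-0.96), CTSL (-0.13), CTSS (-0.64) and CTSZ (-0.37), did not pass the test. The within-batch difference of CTSK was -1.15. Without U87MG replicate 2 none of the 39 was called in limma (unadjusted 6 higher and 7 lower), and the other single omissions gave 1 to 4 higher and 0 to 4 lower calls. Among 14 serpins and cystatins, 3 rose (21.4%, against 3.23% of all genes) and 1 fell (7.14%, against 1.98%). The rises were SERPINB7, SERPIND1 and SERPINI1, and the fall was CSTA. SERPINI1, neuroserpin, rose by 1.44, or by 0.92 without U87MG replicate 2.

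Matrix genes changed in both directions. Of 36 collagens and crosslinking enzymes, 4 rose (11.1%, against 3.23% of all genes) and none fell. TGM2, a transglutaminase that crosslinks matrix proteins, had 9.87, 10.53, 10.77 and 11.13 in the derivatives, against 8.74 and 8.33 in U87MG (log2 difference 2.04, SE 0.33, limma adjusted p = 0.0207). COL4A6, a basement membrane collagen, rose by 1.84 and P3H2, a collagen prolyl hydroxylase, by 1.85, with a within-batch difference of 0.66 for P3H2. A dimmer probe set of P3H2 differed by -0.18.

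Of 53 matrix glycoproteins and proteoglycans, 2 rose (3.77%, near the 3.23% of all genes) and 5 fell (9.43%, against 1.98%), with a median of -0.18. VCAN, the large proteoglycan versican, had 11.36, 11.38, 11.05 and 11.62 in the derivatives, against 9.28 and 9.53 in U87MG (1.95, SE 0.18, adjusted p = 0.00839). SDC1, the cell-surface proteoglycan syndecan-1, had 11.21, 11.27, 11.37 and 10.77 in the derivatives, against 9.92 and 9.79 in U87MG (1.30, SE 0.19, adjusted p = 0.016). VCAN was among the calls kept in every fit that left out 1 array. CCN4, a secreted matricellular protein, had 6.42, 6.19, 6.39 and 4.84 in the derivatives, against 8.66 and 7.97 in U87MG (-2.35, SE 0.45, adjusted p = 0.0325), with U87MGR3 well below the rest. Somewhat dimmer probe sets of CCN4 differed less, by -0.85, -1.27 and -1.50.

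GPC6, a glypican anchored to the membrane, fell by 1.75, DCN, the small proteoglycan decorin, by 1.41 and FN1, fibronectin, by 0.72. A dimmer probe set of FN1 differed by -3.07, and its others above the brightness limit by -0.68 to -0.78. Leaving out 1 array gave 1 to 5 higher and 1 to 5 lower calls among these glycoproteins, with 1 and 1 without U87MGR2 or U87MG replicate 2. Of 35 integrins and adhesion receptors 1 rose (2.86%, near the 3.23% of all genes): ITGA2, the collagen-binding alpha 2 chain, by 1.47. None of 27 junction and cornified envelope genes was called in limma (unadjusted 0 higher and 4 lower). PPL, periplakin, was 9.30 in U87MGL2 and 6.81, 5.78 and 5.69 in the other derivative arrays, against 9.46 and 9.52 in U87MG, and GJB2, a gap junction protein, had 6.24, 6.90, 6.04 and 4.37 in the derivatives, against 8.98 and 7.19 in U87MG.

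Among 30 genes of mesenchymal transition, 1 rose (3.33%, near the 3.23% of all genes) and 4 fell (13.3%, against 1.98%), with a median of 0.02. CEBPD, a transcription factor of the mesenchymal glioblastoma programme, had 8.12, 7.39, 7.44 and 7.81 in the derivatives, against 9.88 and 9.64 in U87MG (log2 difference -2.07, SE 0.23, limma adjusted p = 0.00966). PRRX1, a homeobox factor, fell by 1.49 with a within-batch difference of -0.65, and FN1 and CHI3L1 were the other falls. FOXF1 was the rise. Without U87MG replicate 2 the counts were 0 and 1.

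Of 53 cytoskeleton and motility genes, 4 rose (7.55%, against 3.23% of all genes) and none fell, with a median of 0.06. DIAPH3, a formin that nucleates actin filaments, had 9.50, 9.45, 9.40 and 9.32 in the derivatives, against 8.31 and 7.95 in U87MG (log2 difference 1.29, SE 0.15, limma adjusted p = 0.0102). The derivative arrays of DIAPH3 lay within 0.18 of each other. ACTN4, an actin crosslinker, rose by 1.11, DIAPH1 by 0.94 and MSN, which links actin to the membrane, by 0.68, and single omissions gave 1 to 5 higher calls, with 1 without U87MGR2 or U87MG replicate 2.

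Of 38 axon guidance genes 3 rose (7.89%, against 3.23% of all genes) and 1 fell (2.63%, near the 1.98% of all genes). SEMA3A, a secreted semaphorin, had 7.18, 7.31, 7.12 and 7.85 in the derivatives, against 6.21 and 5.86 in U87MG (1.33, SE 0.23, adjusted p = 0.0254). SLIT3, a ligand of the Robo receptors, had 6.67, 6.01, 6.89 and 6.36 in the derivatives, against 8.54 and 8.15 in U87MG (-1.86, SE 0.25, adjusted p = 0.0143). These secreted guidance cues thus moved in opposite directions, and EPHA2 and NTNG1 (0.73) were the other rises. Without U87MG replicate 2 none was called in limma (unadjusted 3 higher and 4 lower).

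FZD4, the Wnt receptor in the title of the series, was not called. It had 6.87, 6.63, 6.96 and 7.07 in the derivatives, against 6.95 and 6.45 in U87MG, and the groups overlapped (log2 difference 0.18, SE 0.19, limma adjusted p = 0.614). Of 40 Wnt ligands, receptors and targets, 1 rose (2.5%, near the 3.23% of all genes) and 2 fell (5.0%, against 1.98%), with a median of -0.05. LEF1, a transcription factor of the pathway, had 8.58, 8.64, 8.56 and 9.03 in the derivatives, against 7.91 and 7.22 in U87MG (1.14, SE 0.23, adjusted p = 0.035). FZD2, another receptor, had 7.98, 7.51, 7.41 and 7.22 in the derivatives, against 8.72 and 8.64 in U87MG (-1.15, SE 0.21, adjusted p = 0.0294). SFRP2, a secreted Wnt modulator, fell by 1.54, or by 0.91 without U87MG replicate 1, and its within-batch difference was -2.40. A second SFRP2 probe set of similar brightness differed by -2.92.

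Of 30 genes of the bone morphogenetic protein (BMP) pathway, 3 rose (10.0%, against 3.23% of all genes) and 1 fell (3.33%, against 1.98%). GREM1, the secreted antagonist gremlin, had 11.82, 11.66, 11.66 and 11.03 in the derivatives, against 10.04 and 9.29 in U87MG (log2 difference 1.88, SE 0.28, limma adjusted p = 0.0168, within-batch 0.99). BMPER, a secreted modulator, rose by 1.23 and the receptor BMPR2 by 0.75. INHBA, the activin subunit, fell by 0.83, or by 0.55 without U87MG replicate 1. Its mean passed the brightness limit only through the U87MG arrays. No member was called in limma without U87MGL3, U87MGR2 or U87MG replicate 2 (unadjusted 6, 6 and 6 higher and 4, 3 and 4 lower).

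Of 45 growth factors and receptor kinases, 4 rose (8.89%, against 3.23% of all genes) and 3 fell (6.67%, against 1.98%). NRG1, a ligand of ERBB receptors, had 7.58, 8.19, 7.93 and 7.79 in the derivatives, against 6.50 and 6.39 in U87MG (log2 difference 1.42, SE 0.18, limma adjusted p = 0.012), while a dimmer probe set differed by -0.44. HGF, the ligand of MET, had 9.34, 9.02, 8.94 and 9.15 in the derivatives, against 8.15 and 7.32 in U87MG (1.38, SE 0.24, adjusted p = 0.0254). FGF5 rose by 1.00 and HBEGF, an EGF receptor ligand, by 0.97, so the 4 rises were all ligands. PDGFRB, a receptor, fell by 1.16, IGFBP6, which binds insulin-like growth factors, by 0.80 and FGF18 by 1.14, or by 0.69 without U87MG replicate 1.

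Other signalling lists had few calls. Among 34 MAP kinase feedback and immediate early genes 2 rose (5.88%, against 3.23% of all genes), ETV5 by 0.78 and DUSP7 by 0.66. Among 38 G protein signalling genes 1 rose (2.63%, near the 3.23% of all genes) and 3 fell (7.89%, against 1.98%). ADCY8, a calcium-stimulated adenylyl cyclase of neurons, had 7.93, 7.61, 7.92 and 7.59 in the derivatives, against 9.78 and 10.16 in U87MG (log2 difference -2.20, SE 0.18, limma adjusted p = 0.00658). BDKRB2, a bradykinin receptor, fell by 1.62, with a within-batch difference of -2.54, and RGS2 fell by 1.05, while RGS20 rose by 0.91. HEY1 fell by 0.83 as the single call among 27 Notch pathway genes (3.7%, against 1.98% of all genes). Among 23 YAP and TEAD targets 2 rose (8.7%, against 3.23%): AMOTL2, which binds YAP, by 0.97 and RBMS3 as given above.

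SOX9, a transcription factor of neural stem cells and astrocytes, had 8.59, 8.52, 7.90 and 8.93 in the derivatives, against 6.21 and 6.30 in U87MG (log2 difference 2.23, SE 0.26, limma adjusted p = 0.0104, within-batch 2.72). EZH2, a histone methyltransferase, rose by 0.83. A second SOX9 probe set of similar brightness differed by 0.85. SOX9 and EZH2 were the 2 calls (9.09%, against 3.23% of all genes) among 22 neural and glioma stem cell markers, whose median was -0.00. Of 20 HOX genes none was called in limma (unadjusted 2 higher and 2 lower), and HOXB6 had 6.75 and 6.60 in U87MGL, 3.68 and 4.39 in U87MGR and 4.28 and 4.19 in U87MG. MAGEA1, the single call among 13 cancer-testis antigens (7.69%, against 3.23% of all genes), rose by 1.83.

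AKR1C1, AKR1C2 and AKR1C3, aldo-keto reductases, were lower. Of 37 AKR1 reductases and NRF2 targets, 5 fell (13.5%, against 1.98% of all genes) and none rose, with a median of -0.36. AKR1C1 had 11.50, 11.77, 11.74 and 11.43 in the derivatives, against 12.97 and 13.04 in U87MG (log2 difference -1.39, SE 0.15, limma adjusted p = 0.00926). AKR1C3, which reduces steroids and prostaglandins, had 9.30, 9.20, 8.74 and 8.36 in the derivatives, against 10.64 and 10.74 in U87MG (-1.79, SE 0.27, adjusted p = 0.0168). AKR1C2 fell by 1.62. These paralogs are near-identical in sequence, so the 3 falls may share signal and are not separate observations.

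GSTA4, a glutathione transferase, fell by 0.94 and TKT, transketolase, by 0.72. Leaving out 1 array gave 2 to 5 lower calls, with 2 without U87MGR2 or U87MG replicate 2, and the 3 AKR1C genes were called with 2 spike-in batches as a block. The array medians of the list were -0.20, -0.32, -0.27 and -0.18 in the derivatives, against -0.03 and 0.03 in U87MG.

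Stress and metabolism lists held single calls. These made up 2.5% of the hypoxia list and 3.45% of the cholesterol list, near the 3.23% of all genes called higher. In the unfolded protein list the share was 2.38%, near the 1.98% of all genes called lower. STC1, a secreted glycoprotein induced by low oxygen, had 13.00, 13.41, 13.04 and 12.23 in the derivatives, against 11.07 and 11.37 in U87MG (log2 difference 1.70, SE 0.30, limma adjusted p = 0.0268), while another probe set differed by -0.37. It was the 1 call among 40 hypoxia and glycolysis genes, whose median was 0.20 pooled and -0.47 within batch. DDIT3, a transcription factor of the unfolded protein response, fell by 1.16 among 42 genes with a median of -0.27, or -1.08 within batch. U87MGR3 had the lowest array median in both lists, -0.24 and -0.70. ELOVL6, which elongates fatty acids, rose by 0.87 among 29 genes of cholesterol and fatty acid synthesis with a median of -0.41, and without U87MG replicate 1 none of these rose and 7 fell.

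None of 36 oxidative phosphorylation genes and none of 36 ribosomal protein genes was called in limma (unadjusted 0 higher and 5 lower, and 0 and 0). SDHC differed by -0.67 and RPL12 by -0.32, the largest differences of each list. Among 40 transporters 1 rose, SLC4A4 (2.5%, near the 3.23% of all genes), and 1 fell (2.5%, near the 1.98%). The fall was SLC6A15, a neutral amino acid transporter, by 0.91, but its dimmer probe sets differed by 0.62, 0.31 and -0.39. The short counts above moved with single arrays. Without U87MG replicate 2, 1 and 2 growth factor genes were called higher and lower, 0 and 1 each of the Wnt and G protein genes, and 1 and 0 of the interferon-stimulated genes. In the same limma fit none was called among the collagens (unadjusted 4 higher and 5 lower), serpins and cystatins (3 and 3), chemokines (1 and 5), integrins (3 and 4), stem cell markers (2 and 3), MAP kinase genes (3 and 2) and hypoxia genes (2 and 3).

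**Figure D4:**
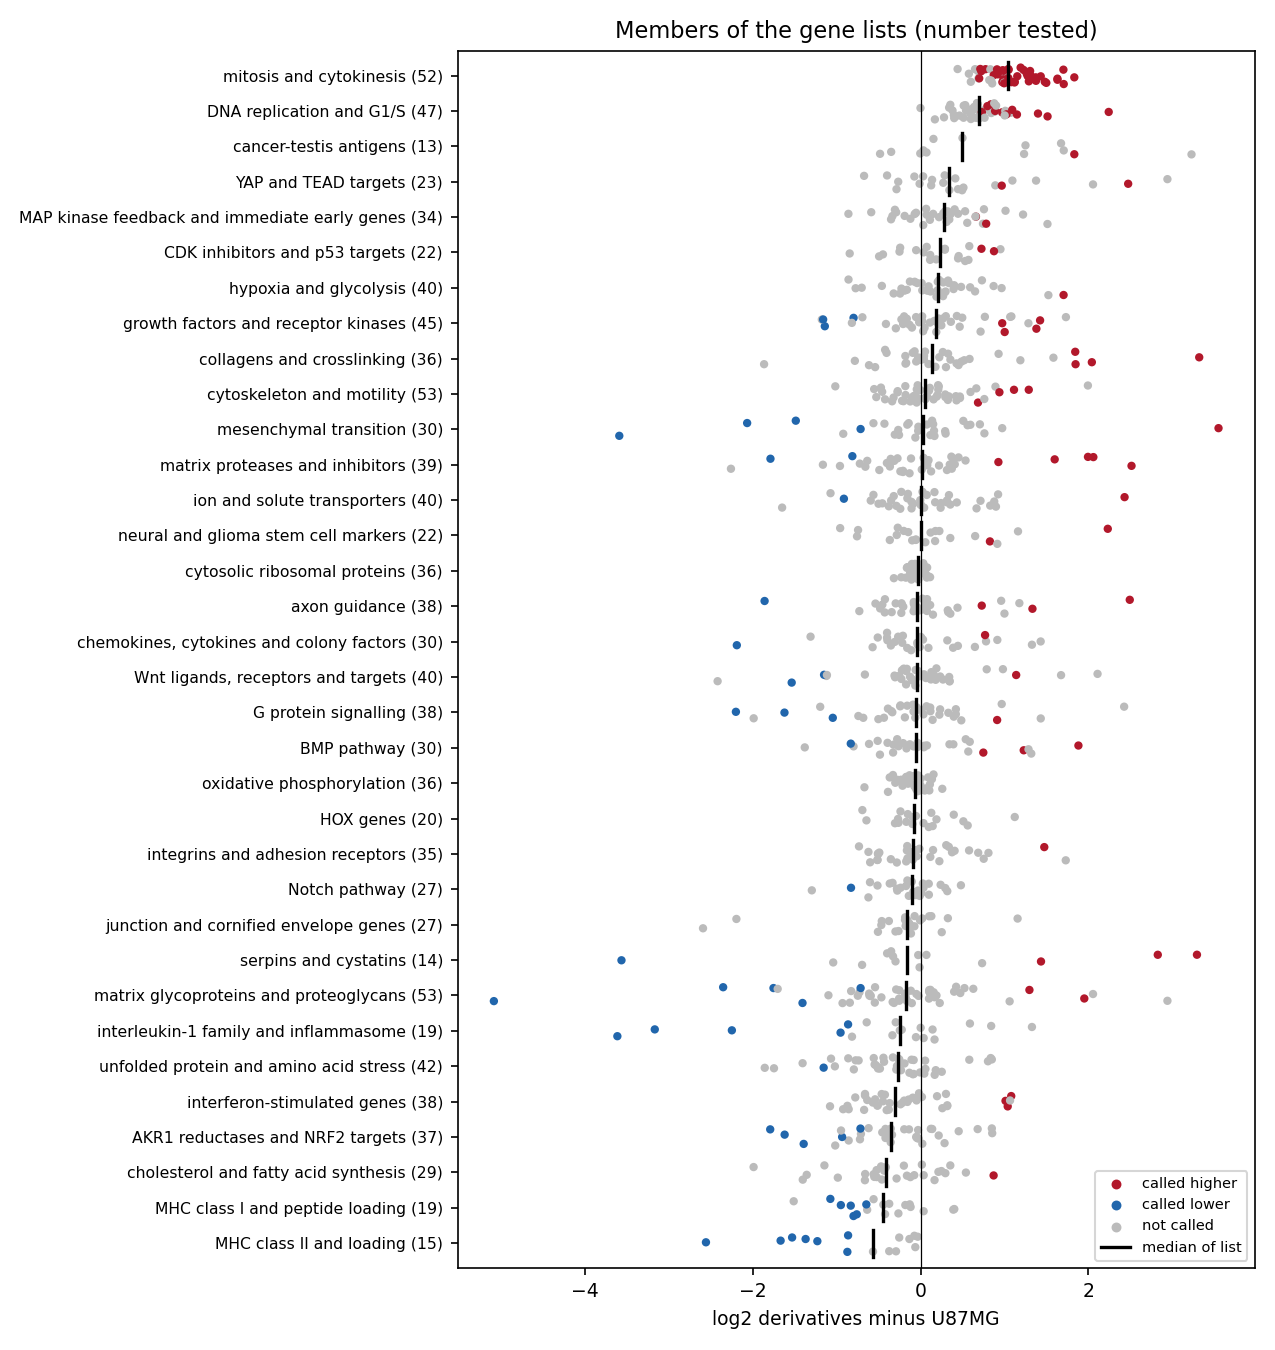
Log2 difference, derivatives minus U87MG (horizontal axis), of every tested member of the 34 gene lists, ordered by list median, with the number tested in brackets. Red points were called higher, blue points lower and grey points neither; the black bar is the list median, highest for mitosis and cytokinesis at 1.05 and lowest for MHC class II at -0.57.

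Markers of cell types that tumour tissue taken from a brain may hold gave no calls for microglia and macrophages (8 tested), endothelium (6), neurons (9), the oligodendrocyte lineage (5) and red cells (3). At an unadjusted p under 0.05, limma had 2 lower for microglia, 2 higher and 1 lower for neurons, and 1 lower for the oligodendrocyte lineage. Leaving out 1 array gave at most 2 calls in any of these lists: without U87MG replicate 1, limma called the endothelial genes CLDN5 and TEK lower, at log2 differences of -1.23 and -0.85. Over all 6 arrays a second TEK probe set above the brightness limit differed by 1.55, against -0.45 for the probe set used. The mean log2 signal of all microglial markers on the array was 4.86 to 4.97 in the derivatives, against 5.06 and 5.08 in U87MG. That of endothelial markers was 4.78 to 4.92 in the derivatives, against 4.90 and 5.05 in U87MG, and that of red cell markers 4.95 to 5.28, against 5.02 and 5.26. PTPRC, P2RY12, CDH5 and AHSP were below the brightness limit, at 3.25 to 4.46 in the 6 arrays. The 8 microglial and 6 endothelial markers tested had means above it. Among them CSF1R was at 7.31 to 7.85, PECAM1 at 6.12 to 6.51 and VWF at 5.44 to 5.72 in the 6 arrays. FCER1G had 5.86, 6.25, 6.74 and 6.78 in the derivatives, against 6.10 and 5.93 in U87MG. Host cells of mouse would meet human probes, and their part in the results was not tested.

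Astrocyte markers were checked because glioma cells can carry them. GFAP, the filament that defines astrocytes, was 5.21 to 5.25 in the derivatives, against 5.35 and 5.45 in U87MG, close to the brightness limit of 4.73, and S100B and AQP4 were below it. Brighter members of the list included GJA1 at 11.73 to 12.91, CLU at 11.36 to 12.30 and SLC1A3 at 8.69 to 10.35 over all arrays. Among 9 tested astrocyte genes SOX9 rose (11.1%, against 3.23% of all genes) and 2 fell (22.2%, against 1.98%). The falls were the glutamate transporter SLC1A3, by 1.24, and the secreted chaperone CLU, by 0.72. Among 8 pericyte and fibroblast markers DCN and PDGFRB fell (25%, against 1.98% of all genes). Of the 8 markers, 4 lay above 0 and 4 below, and 2 higher and 3 lower had an unadjusted p under 0.05 in limma. CSPG4, a proteoglycan of pericytes, had 7.96, 7.45, 7.18 and 7.06 in the derivatives, against 6.73 and 5.83 in U87MG (log2 difference 1.14, adjusted p = 0.0853), and ACTA2, smooth muscle actin, differed by 0.43. COL1A1 was 12.29, 11.87, 11.27 and 10.33 in the derivatives, against 12.24 and 11.72 in U87MG.

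The difference between the derivatives was small for most called genes. None of the 757 was called between U87MGR and U87MGL in limma, where 23 of all 14513 genes (0.158%) were. At an unadjusted p under 0.05, 26 higher and 23 lower genes of the 757 differed between the derivatives, and 1284 of all 14513 genes did. The median absolute difference between the derivatives was 0.15 for higher and 0.16 for lower genes, and the difference stayed under 0.5 for 441 and 261. The same values were not taken over all genes tested, so they do not set the called genes apart. The design favours small differences among called genes, because a difference between the derivatives adds to the error of the pooled test. The 95% interval of U87MGR minus U87MGL reached a median of 0.45 to either side, so smaller differences could not be resolved.

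Against U87MG, U87MGL had 438 higher (3.02%) and 261 lower genes (1.8%), and U87MGR 270 (1.86%) and 209 (1.44%). These comparisons share the U87MG arrays. Of the 757 genes, 179 higher and 114 lower ones were called in both. EFEMP1 differed by -5.04 in U87MGL and -5.14 in U87MGR, CH25H by -2.96 and -2.95, ADCY8 by -2.20 and -2.21, and MKI67 by 1.63 and 1.64. The changes were uneven in COL13A1, at 4.18 in U87MGL and 2.46 in U87MGR, in CCL2, at -1.51 and -2.87, and in CSTA, at -2.90 and -4.24. For COL13A1 the unadjusted 95% interval of U87MGR minus U87MGL ran between -2.84 and -0.59, for CCL2 between -2.01 and -0.72 and for CSTA between -2.29 and -0.39. The genes were chosen for the size of this same difference, so intervals that leave out 0 are no test of it. None of them was called between the derivatives in limma (adjusted p = 0.338 for COL13A1 and 0.383 for CSTA). SLC26A4 (2.85 and 1.63), OLFML3 (-3.41 and -2.21) and FAM107B (2.72 and 1.58) were the other least even genes.

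Calls were spread over all chromosomes, with chromosome 7 apart from the rest, as seen after the values were known. Of its 679 tested genes 42 (6.19%) rose and 2 (0.295%) fell. On the other chromosomes 1.70% to 5.31% of the genes rose and 1.06% to 3.37% fell. The chromosome 7 median was 0.14, and by array it was 0.04 and 0.01 in U87MGL and 0.22 and 0.27 in U87MGR, against 0.01 and -0.01 in U87MG. The shift of the median was thus larger in both U87MGR arrays than in both U87MGL arrays. Single omissions gave 29 and 2 without U87MGL2, 9 and 0 without U87MGL3 or without U87MGR2, 37 and 1 without U87MGR3, 36 and 7 without U87MG replicate 1, and 4 and 1 without U87MG replicate 2. With 2 spike-in batches as a block the counts were 4 and 0.

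**Figure D5:**
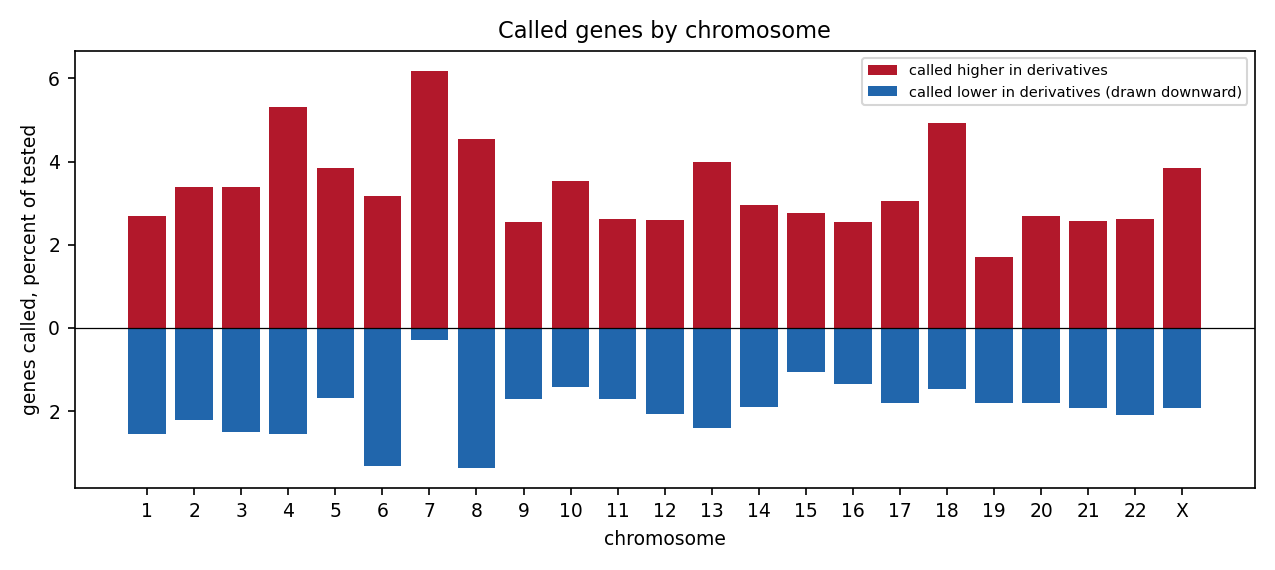
Share of tested genes called higher in the derivatives (red, upward) and called lower (blue, drawn downward), in percent on the vertical axis, for each chromosome on the horizontal axis. Chromosome 7 has 6.19% higher and 0.295% lower.

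Other probe sets of the called genes mostly moved alike with smaller differences. Of the called genes, 437 had 839 further probe sets above the brightness limit, and 756 of these (90.1%) had the sign of the call. Their median difference in the direction of the call was 0.62, against 0.93 for the probe sets used. Among the named called genes, 68 had 131 further probe sets. A difference of opposite sign, or less than 0.3 times that of the probe set used, was seen in 24 of them, from 20 genes, and 9 of the 24 were opposite in sign. Beyond the values given above, these were AKR1C1 (-0.30 and -0.10), BMPR2 (-0.17), CD74 (-0.34), ETV5 (0.05), FGF18 (-0.30), HBEGF (-0.19), LEF1 (0.24), MCM10 (0.42), MSN (0.16), NTNG1 (0.12), OAS3 (0.10), PDIA3 (-0.31), RBMS3 (0.58), RGS20 (0.22) and TGM2 (0.21).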

How the data were processed

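Total RNA of cultured cells was labelled with biotin and measured on 6 single-colour expression arrays. The table deposited by the authors gave a log2 signal for each of 54675 probe sets, with array medians close together. The normalization and the software behind it are not given in the sources used here. Values were checked for scale and lay between 2.38 and 14.6. No further normalization was applied.

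Of the probe sets, 41097 carried 1 gene symbol, 1801 several and 11777 none in the platform's annotation. Each of 19775 genes was represented by the 1-symbol probe set with the highest mean over the 6 arrays. Of the 1-symbol probe sets, 41043 (99.9%) matched RefSeq by gene number. Genes entered the tests from a mean log2 signal of 4.73 upward (the brightness limit), which is the 40th percentile over probe sets. The mean is over all 6 arrays, so a gene could pass through 1 arm alone, as SGO1, SLC26A4, INHBA and IL1R2 did. HOXB6 passed through the U87MGL arrays alone.

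The test was limma 3.58.1 in R 4.3.3 (lmFit and eBayes), with the 4 derivative arrays as one arm and the 2 U87MG arrays as the other, 4 residual and 3.52 prior degrees of freedom. P-values were two-sided and adjusted by Benjamini-Hochberg over all 14513 genes, and a gene was called at an adjusted p under 0.05. The median SE of a log2 difference was 0.17, and the number of arrays limits the precision. U87MGR was compared with U87MGL in a second limma model with 3 groups. Replicates are labelled biological, with nothing on separate cultures, so p-values measure only the spread between these samples.

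Named were FZD4, the 12 largest rises and falls among called genes, up to 4 called members per list and direction (for a list with none, 2 members by size of change), and the 6 most and 6 least even genes between U87MGL and U87MGR with a change of at least 1.5. List members outside this rule, and genes with a disagreeing second probe set, were picked after their values were seen. Genes of the Y chromosome were not named. The members and the gene lists were chosen with earlier results of these data known, so lists are described by counts and medians, with no set test. Replicate numbers were not treated as pairs, since the correlation of equally numbered arrays after removal of group means was -0.09, 0.11 and 0.01. The procedure was tested on simulated data. Alternatives were other filters, quantile normalization, centring, the mean of a gene's probe sets, a minimum fold, replicate and spike-in batch blocks, and the omission of each array; counts of list members and of chromosome 7 under alternatives were added after seeing the data.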

Additional observations from a re-analysis of the deposited data

Results flagged for a closer look

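Dixon's test within the 4 derivative arrays marks about 1 in 20 groups by chance, and it marked 12 of 129 named genes, 41 lists and 2 controls. SERPINB7 was low in U87MGL2 at 9.25, and MAGEA1 was low in the same array at 6.64. KIF23 (9.24), HERC6 (7.16) and CCN4 (4.84) were low in U87MGR3, and LEF1 was high there at 9.03. The array also stood apart in the GAPDH control, whose 3′ minus 5′ difference was 0.24, against 0.03 to 0.05 in the other derivative arrays and 0.05 and 0.07 in U87MG. As medians relative to the U87MG mean, the MHC class II list was at -1.03 in U87MGR3, the erythroid list at 0.1 in U87MGR3, the HOX list at -0.14 in U87MGR2, the microglia list at -0.19 in U87MGL2 and the astrocyte list at -0.34 in U87MGL3. Each of these was the value farthest from the other 3 derivative arrays.

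HOXB6, a homeobox transcription factor, differed between the derivatives. It was lower in U87MGR than in U87MGL by 2.64 on the log2 scale in the limma model with 3 groups (-2.64), where it was called. HOXB6 was not called between the pooled derivatives and U87MG.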

How the results depend on the processing

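Against 469 higher and 288 lower, the fit with the replicate number as a block gave 272 and 174, 2 spike-in batches as a block 16 and 31, 3 batches 0 and 0 in limma (unadjusted 1524 and 1596, with U87MG replicate 2 left out of the fit), and a tested minimum of 0.5 on the log2 scale 15 and 21. The replicate numbers share only a number here. Leaving out 1 array gave 65 to 497 higher and 50 to 397 lower. Between U87MGR and U87MGL the 23 calls became 4 and 0 with 2 and 3 batches (unadjusted 564 and 1169), 40 with no filter, 10 with the filter at the 60th percentile, 12 with the tested minimum, and 3 to 34 without 1 array. The other filters and scalings kept the counts within 1.5 times. Single calls moved more: with the mean of a gene's probe sets, 29 of the 129 named genes lost their call. Among them was COL13A1, with a difference of 1.84 (limma adjusted p = 0.0608). With no filter 10 named genes lost their call. Centring each array on the median of tested genes shifted that median by -0.064, and 52.3% of the calls were then higher, against 62.0% without it. No named gene that was called changed direction in any setting, over 2307 values of 129 genes. For the omission of an array and the batch blocks that direction was fixed, since the derivative arrays of called genes did not overlap U87MG. Of the 110 called ones, 24 remained called without U87MG replicate 2, 37 without U87MGR2 and 21 with 2 batches. Of the list medians under alternatives, 590 moved by less than the spread between replicates and 147 by more. The cause of these shifts was not tested. Raw scanner data were not used here, so signal over background could be judged only by the brightness limit of 4.73.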

Other observations

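Some genes outside the rule for naming, picked after their values were seen, were called in the pooled comparison and again when 2 spike-in batches formed a block. PDPN, the membrane glycoprotein podoplanin, had log2 signals of 8.63, 7.86, 8.18 and 7.45 in the derivatives, against 10.07 and 9.94 in U87MG (pooled difference -1.98, SE 0.30, limma adjusted p = 0.0172). CHI3L2, a chitinase-like relative of CHI3L1, had 6.63, 6.98, 6.49 and 6.19 in the derivatives, against 8.75 and 8.57 in U87MG (-2.08, SE 0.22, adjusted p = 0.00922). CDH23, an atypical cadherin, differed by -1.94. On the side of the rises, HELLS, a chromatin remodeller, had 8.92, 8.73, 8.57 and 9.06 in the derivatives, against 7.40 and 7.46 in U87MG (1.39, SE 0.17, adjusted p = 0.0105). POLQ, the polymerase of end joining, had 8.35, 8.54, 8.40 and 8.56 in the derivatives, against 7.20 and 7.02 in U87MG (1.35, SE 0.14, adjusted p = 0.00922).

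The same block also called genes that the pooled comparison did not. In BCL11B, a zinc finger transcription factor, U87MGR3 was at 4.61 and the other derivative arrays at 6.65 to 7.04, against 7.08 and 7.27 in U87MG. KLF6, another zinc finger factor, was at 11.82 in U87MGR3 and 10.13 to 10.28 in the other derivative arrays, against 10.12 and 9.89 in U87MG. In both genes the 3 other derivative arrays were close to U87MG.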
